A study of Homo sapiens with 9 samples.

Results

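The comparison described here sets MDA-MB-468 cells carrying shFAM83H-AS1_1, 1 of the hairpins used against the long noncoding RNA FAM83H-AS1, against the same cells carrying the control hairpin shNC. It covers every gene with at least 1 FPKM (reads scaled by gene length and library depth) in at least 3 of the 9 libraries of the study, which gave 11875 of 31004 genes. The line MDA-MB-468 comes from a breast cancer of the triple-negative, basal-like kind, and was grown in DMEM with serum. All groups, shNC included, received lentivirus at an MOI of 10, then puromycin (1 µg/mL) for selection, and 2 µg of total RNA went into each library. There were 3 libraries with shFAM83H-AS1_1, 3 with shFAM83H-AS1_2, a hairpin against the same target that entered the fit and is compared at the end, and 3 with shNC. The labels give the genotype as WT and speak of triplicate experiments without saying whether these were separate cultures, so p-values measure the spread between these libraries, which may be technical. The lines are described as stable and selected, and whether each is 1 clone or a pool is not stated.

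A short hairpin RNA is processed in the cell into a small RNA that guides degradation of transcripts with a matching sequence. In epithelial tumour cells many genes for secreted chemokines and cytokines are switched on by NF-kB, a family of transcription factors that also induce their own inhibitors, among them NFKBIA and TNFAIP3. Chemokines of the CXC class with an ELR motif attract neutrophils, and CC chemokines such as CCL2 attract monocytes.

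Libraries held 15265629 to 18108408 reads in genes. The epithelial markers KRT5, KRT14, KRT17, KRT8, KRT18, EPCAM and CDH1 lay between 8.62 and 721 FPKM in all 9 libraries, and ESR1, the oestrogen receptor, did not exceed 0.316 FPKM. EGFR, known to be amplified in this line, lay at only 5.29 to 10.3 FPKM, and 43.4% of the genes tested were higher than it in shNC cells. SMAD4, known to be deleted in this line and looked up after the other markers had been seen, did not exceed 0.0338 FPKM. The 8 immune markers looked up (PTPRC and CD3E among them) were under 1 FPKM in every library. The 9 fibroblast and endothelial markers summed to 22.5 to 27.4 FPKM with shFAM83H-AS1_1 and 21.5 to 28.7 FPKM with shNC; 7 of the 9 were under 1 FPKM everywhere, and KDR, at 19.1 to 31.3 FPKM, held most of the sum.

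Replicate 3 of shFAM83H-AS1_1 stood apart from its replicates, so each result is given with all 9 libraries and without it. Across genes it correlated at 0.941 and 0.950 with its replicates on the log2 scale, which correlated at 0.980 with each other, and it had 987 genes more than 1 log2 unit below its replicates, where each of the other 8 libraries had 25 to 59. Its departures ran with base composition, with a Spearman correlation of 0.54 with GC content across genes, a description only. The other 8 libraries had values of -0.68 to 0.63. Each departure is taken from the mean of the other libraries of the group, so the -0.68 of shFAM83H-AS1_1 replicate 2 is tied to replicate 3. The shNC and shFAM83H-AS1_2 libraries had -0.49 to 0.63, so trends with GC content were not confined to replicate 3.

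The targeted transcript was lower with shFAM83H-AS1_1 in each library. FAM83H-AS1 (ENSG00000203499, hg38 chromosome 8, 143734140 to 143790644, plus strand) was found as the RefSeq gene IQANK1, which lists FAM83H-AS1 as a synonym and is annotated as protein coding; whether the hairpins match this model was not checked. It had 7.37, 5.54 and 4.93 FPKM with shFAM83H-AS1_1, against 17.9, 17.5 and 14.3 FPKM with shNC. The groups did not overlap, as for 29.7% of all genes tested (15.3% lower, 14.4% higher), and the gene fell to 35.9% of the control mean, or 39.0% without replicate 3. On the log2 scale this was -1.35 with 9 libraries (SE 0.15, limma adjusted p = 0.00637) and -1.24 without replicate 3 (limma adjusted p = 0.00706). The exact two-sided permutation p was 0.1, the smallest that 3 against 3 libraries can give. In a fit of only the 2 groups compared the limma adjusted p was 0.0586. FAM83H, which in the deposited coordinates overlaps it over 4095 bases on the opposite strand, did not pass (log2 change -0.10, limma adjusted p = 0.669).

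Cultures with shFAM83H-AS1_1 had less RNA of inflammatory chemokines and cytokines, of NF-kB feedback genes and of some nucleolar and splicing factors, and more RNA of a basal keratin, a hemidesmosome integrin, a death ligand and cytoskeletal genes. In bulk RNA, fewer cells of a kind and less RNA per cell cannot be told apart. With all 9 libraries, 187 genes passed the threshold (limma on log2(FPKM + 1), Benjamini-Hochberg adjusted p under 0.05), 1.57% of the genes tested. Of these, 111 were higher (0.935%) and 76 lower (0.640%). Without replicate 3 the count was 209 (1.76%), 120 higher (1.01%) and 89 lower (0.749%). The fits shared 156 calls, which is 83.4% of the 187 and 74.6% of the 209, made up of 90 higher and 66 lower genes. Each of the 240 genes called in either fit had the same sign in both. All libraries of the second fit are also in the first, so this agreement was close to given. With 9 libraries the groups did not overlap at any of the 111 higher or 76 lower genes, so separate groups add nothing to a call.

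Leaving out replicate 3 made most changes smaller. Genes called higher had a median log2 change of 0.92 with 9 libraries, and those called lower -0.88. Of the 90 higher genes shared by the fits, 81 had the larger change with replicate 3 included, and so did 55 of the 66 lower genes. Relative to the shNC mean, the medians over the 111 higher genes were 0.84, 0.75 and 1.19 in replicates 1, 2 and 3. Over the 76 lower genes they were -0.77, -0.78 and -1.15. These genes were called with replicate 3 in the fit, so the medians are not independent of the choice. Over the 120 higher genes called without replicate 3 the medians were 0.85, 0.75 and 1.31. Over the 89 lower genes they were -0.73, -0.78 and -1.33. Replicate 3 was the farthest from control at both ends, while replicates 1 and 2 lay close together. The median over all genes tested was -0.08 with 9 libraries and -0.00 without replicate 3. Of the 11875 genes, 6881 had a negative log2 change with 9 libraries and 6016 without replicate 3.

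**Figure D1:**
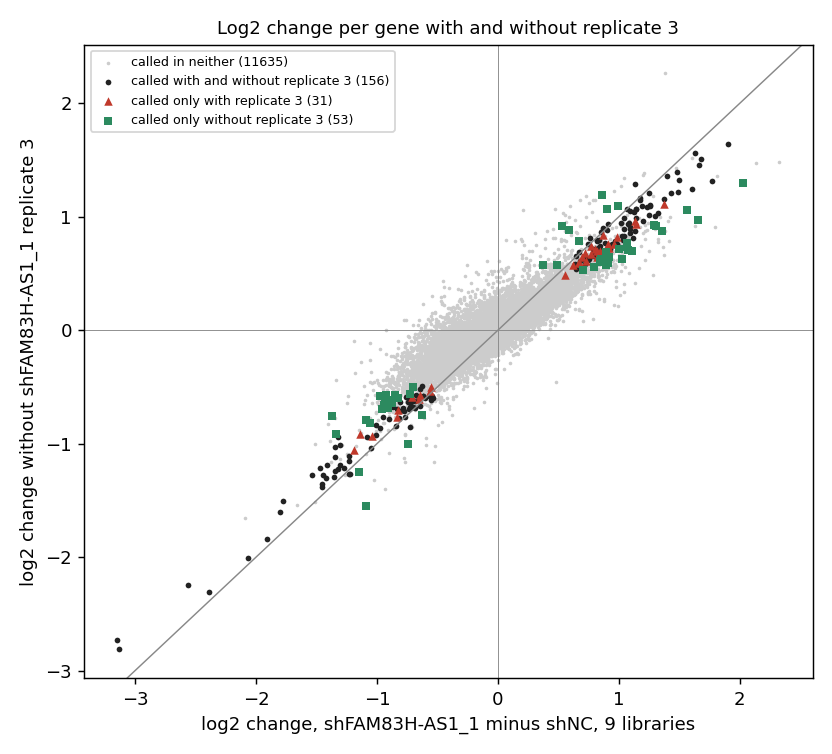
Each point is 1 of the 11875 genes tested, with its log2 change (shFAM83H-AS1_1 minus shNC, of FPKM + 1) in the 9-library fit on the x axis and without shFAM83H-AS1_1 replicate 3 on the y axis; colours give the 156 genes called in both fits, the 31 called only with and the 53 called only without replicate 3, and the line marks equal values. Called genes keep their sign in both fits, which share all libraries but replicate 3, and most lie nearer to 0 without it.

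The number of calls depended on how the fit was made and on single libraries. It was 9 in a fit of only the 2 groups compared (39 without replicate 3), 83 with voom on recovered reads (256) and 2361 with library weights (405); leaving out 1 library gave 9 (without shNC replicate 3) to 1008 (without shFAM83H-AS1_1 replicate 2). In several of the 9-library alternatives lower calls outnumbered higher ones. The 9 calls without shNC replicate 3 were all lower, and those with only the 2 groups were 1 higher and 8 lower. Without shNC replicate 1 there were 5 higher and 9 lower, without shNC replicate 2 there were 12 higher and 19 lower, and with no filter on low values 8 higher and 22 lower. Others kept more higher calls: 45 higher and 38 lower with voom, and 1298 and 1063 with library weights. Without shFAM83H-AS1_1 replicate 3 there were 40 higher and 20 lower with no filter, and 246 and 159 with library weights. Genes called higher were rich in GC, with a median of 58.1%, against 49.6% for genes called lower and 48.8% for all genes tested. They were also short, with a median length of 2623 bases, against 3443.5 for genes called lower and 4613 for all genes tested. The departures of replicate 3 correlated with length at -0.25 (Spearman, across genes), against 0.22 and 0.20 in its replicates. Each departure is taken from the mean of the other libraries of the group, so the opposite signs were partly given. With GC trends removed from each library 369 genes passed (186 higher, 183 lower; 166 shared with the 187), and 465 without replicate 3, of which 205 were higher and 260 lower. The part of gene length in these calls was not tested.

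Chemokine and cytokine genes held the 4 lowest log2 changes among the called genes. Of 28 on the list, 13 were measured, and 12 had a negative log2 change in both fits. The filter of 1 FPKM in 3 libraries can be met by the shNC libraries alone, which favours a negative sign. CXCL10 reached 1 FPKM in the shNC libraries only. CXCL3 and CCL20 were below 1 FPKM in each shFAM83H-AS1_1 library and met the filter only with the shNC libraries counted. These genes are part of the counts and medians of the list. With 9 libraries 8 were called lower, without replicate 3 it was 7, and none were called higher. Of all genes tested, 0.640% were called lower with 9 libraries and 0.749% without replicate 3. A negative log2 change was found in 6881 of all 11875 genes with 9 libraries and 6016 without replicate 3. The list median was -1.27 with 9 libraries and -1.21 without replicate 3. Its mean was -1.19, -1.26 and -1.65 in replicates 1, 2 and 3, so all 3 libraries were low.

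CCL2 (ENSG00000108691, chromosome 17, 34255218 to 34257203), the monocyte chemokine MCP-1, had 1.71, 2.95 and 0.378 FPKM with shFAM83H-AS1_1, against 20.3, 22.2 and 19.6 FPKM with shNC. Replicate 3 was the lowest and replicate 2 the highest of the shFAM83H-AS1_1 libraries, and none came near the controls, which were close together. Its log2 change was -3.14 (SE 0.32, limma adjusted p = 0.00314), and -2.73 without replicate 3 (limma adjusted p = 0.000357).

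The ELR chemokine genes on chromosome 4 were low in the same libraries. CXCL1 (73869393 to 73871308) had 1.09, 2.43 and 0.367 FPKM with shFAM83H-AS1_1, against 17.6, 16.8 and 19.0 FPKM with shNC, a log2 change of -3.13 (limma adjusted p = 0.00175; -2.81 without replicate 3). CXCL8 (73740541 to 73743716), which encodes interleukin-8, had 0.662, 1.63 and 0.0837 FPKM against 8.19, 9.04 and 9.52 FPKM, a log2 change of -2.56 (limma adjusted p = 0.00314; -2.24 without replicate 3). CXCL3 (74036589 to 74038807) had 0.278, 0.149 and 0.0563 FPKM against 3.66, 3.45 and 2.95 FPKM, a log2 change of -1.91 (limma adjusted p = 0.00175; -1.84 without replicate 3). In each of the 3 genes the shFAM83H-AS1_1 libraries lay below every control, which the rule that named them required. Replicate 3 was the lowest in each. The CXCL3 values rest on 18 reads over the 3 shFAM83H-AS1_1 libraries and 359 over the controls, and near-identical copies such as CXCL1 and CXCL3 can exchange reads. These 3 were the only genes tested in their span of chromosome 4, and CXCL1, CXCL3, CXCL8 and CCL2 stayed past the threshold whichever of the 9 libraries was left out.

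Among the cytokines, TNF, tumour necrosis factor, had 1.91, 1.05 and 1.08 FPKM with shFAM83H-AS1_1, against 11.3, 15.4 and 7.81 FPKM with shNC (log2 change -2.39, SE 0.25, limma adjusted p = 0.00314; -2.31 without replicate 3). The controls were uneven, with replicate 3 the lowest, and the groups were far apart. CSF1, the growth factor of macrophages, had 7.88, 4.54 and 5.20 FPKM against 19.3, 14.7 and 12.5 FPKM (-1.27, limma adjusted p = 0.0257; -1.21 and 0.0349 without replicate 3). CCL20, a chemokine for cells with the receptor CCR6, had 0.426, 0.139 and 0 FPKM against 2.19, 2.38 and 1.87 FPKM (-1.42, limma adjusted p = 0.011; -1.30 without replicate 3), from 15 and 165 reads. CXCL10, an interferon-induced chemokine, had 0.788, 0.0940 and 0.0532 FPKM against 2.21, 2.29 and 1.32 FPKM. It passed with 9 libraries (-1.19, limma adjusted p = 0.0438) and missed the threshold without replicate 3 (-1.05, limma adjusted p = 0.062). For TNF and CSF1, replicate 1 was the highest of the 3 shFAM83H-AS1_1 libraries, and replicate 3 did not stand out.

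**Figure D2:**
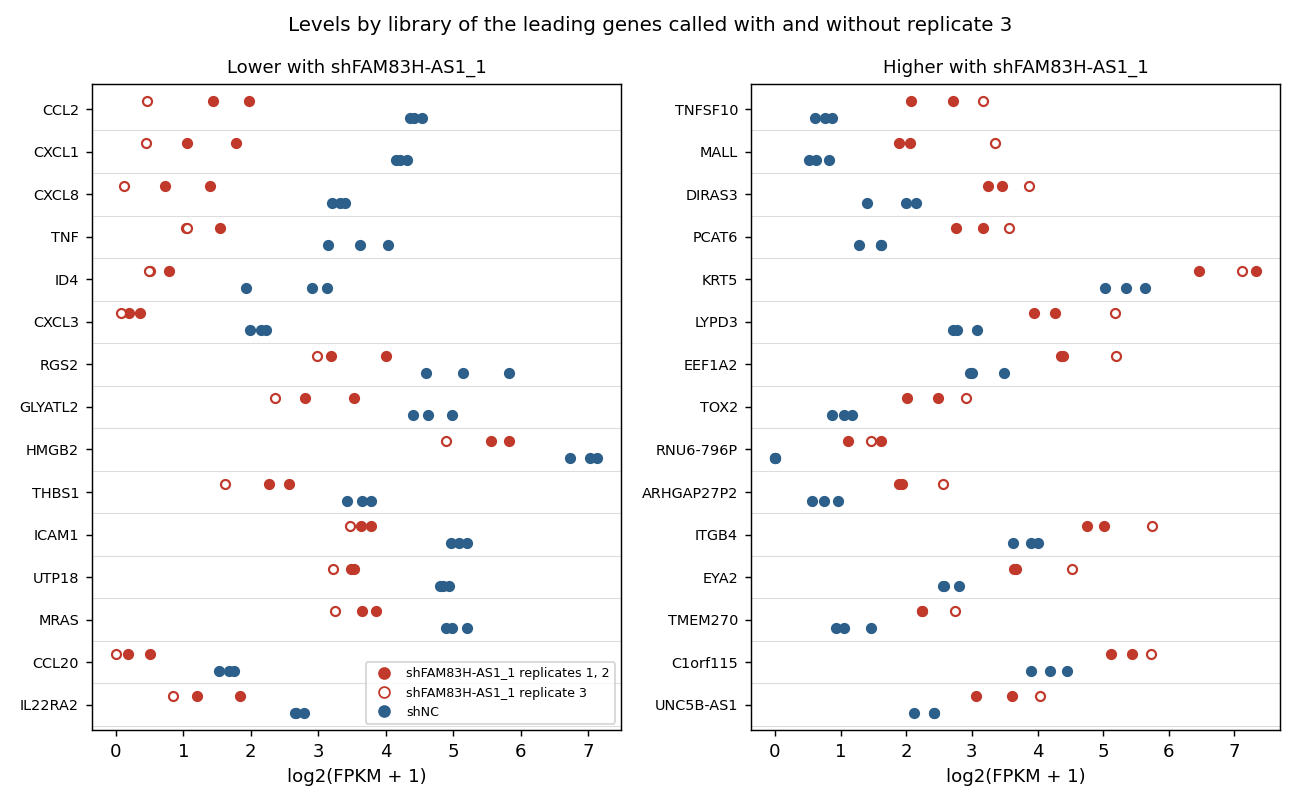
Level of each gene as log2(FPKM + 1) in the 3 shFAM83H-AS1_1 libraries (red, upper row of each gene, replicate 3 hollow) and the 3 shNC libraries (blue, lower row), for the 15 lowest and 15 highest log2 changes named by the rule among genes called with and without replicate 3. Genes were shown only if the groups did not overlap, which holds for 29.7% of all genes tested. CCL2 lies at 2.95 FPKM or below in each shFAM83H-AS1_1 library and at 19.6 FPKM or above in each control.

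The start of several of these genes carries letters that match the NF-kB consensus. The sequences below are the 100 bases before the start site on the gene's strand, 5′ to 3′, from RefSeq (GRCh38.p14). They are shown for genes of the chemokine and NF-kB lists that were called lower in both fits and have a match within that stretch. Capitals mark the matches in that window, and where matches on both strands overlap, their joint length.
CXCL1 (chr4:73869293-73869392, plus strand): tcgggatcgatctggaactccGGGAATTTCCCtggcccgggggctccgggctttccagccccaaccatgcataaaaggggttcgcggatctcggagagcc
CXCL3 (chr4:74038690-74038789, minus strand): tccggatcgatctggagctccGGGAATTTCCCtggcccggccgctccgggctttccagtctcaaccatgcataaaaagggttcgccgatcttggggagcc
CCL20 (chr2:227813742-227813841, plus strand): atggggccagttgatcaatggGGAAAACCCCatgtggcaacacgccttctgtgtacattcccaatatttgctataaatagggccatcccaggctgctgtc
TNFAIP3 (chr6:137867159-137867258, plus strand): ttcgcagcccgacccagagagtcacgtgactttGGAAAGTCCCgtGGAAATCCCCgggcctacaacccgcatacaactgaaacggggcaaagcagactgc
NFKBIA (chr14:35404750-35404849, minus strand): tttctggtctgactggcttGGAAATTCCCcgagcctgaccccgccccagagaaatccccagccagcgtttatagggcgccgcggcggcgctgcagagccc
CXCL1 and CXCL3 share the matched stretch at the same distance from the start site, and their sequences around it are alike.

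Over both strands of the 250 bases before the start, the NF-kB consensus was found in 14 of the 60 lower genes with a promoter entry (23.3%) and 10 of 67 higher genes (14.9%), against 1387 of 8725 genes tested (15.9%) and 9.96% of all 35116 entries. It was found in 5 of the 7 measured chemokine and cytokine genes with an entry. The letters TATAAA were found in 16 of the 60 lower genes (26.7%) and 7 of the 67 higher genes (10.4%), against 7.45% of genes tested. The letters TGANTCA of the AP-1 motif were in 6.67% of lower genes, 10.4% of higher genes and 5.72% of genes tested. A match is a description of letters, not a binding site; the motifs were not masked for overlap with each other.

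Of the NF-kB pathway and feedback list, 26 of 32 genes were measured, and 5 were called lower in both fits: ICAM1, TNFAIP3, TNFAIP2, RELB and NFKBIA. None were called higher, 20 members had a negative log2 change (21 without replicate 3), and the median was -0.24 (-0.29 without replicate 3). Over all 11875 genes tested, 6881 were negative (6016 without replicate 3), and 0.640% were called lower (0.749% without replicate 3). ICAM1 (chromosome 19, 10271093 to 10286615), an adhesion molecule for leukocytes, had 12.8, 11.4 and 10.1 FPKM with shFAM83H-AS1_1, against 33.1, 35.9 and 30.4 FPKM with shNC. The spread within either group was small beside the gap, at -1.46 on the log2 scale (SE 0.13, limma adjusted p = 0.00175; -1.38 without replicate 3). TNFAIP3, the ubiquitin-editing enzyme A20 that restrains NF-kB signalling, had 1.41, 0.758 and 0.609 FPKM against 3.60, 4.78 and 2.89 FPKM (-1.31, limma adjusted p = 0.0234; -1.19 without replicate 3). NFKBIA, which holds NF-kB in the cytoplasm, had 30.7, 30.2 and 31.2 FPKM against 42.8, 50.6 and 44.8 FPKM (-0.57, limma adjusted p = 0.0396; -0.58 without replicate 3). For NFKBIA the 3 shFAM83H-AS1_1 libraries were nearly equal, and replicate 3 was not the lowest. TNFAIP2 fell by 1.23 on the log2 scale and RELB, an NF-kB subunit, by 1.01 (limma adjusted p = 0.0307 and 0.0396). RELA, a main activating subunit of NF-kB, did not pass, with 30.1, 28.2 and 28.5 FPKM against 29.5, 28.9 and 25.5 FPKM (log2 change 0.05, limma adjusted p = 0.773).

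SOCS3, ZC3H12A and SAA2, of no list, were called lower and are named after their values were seen. SOCS3, a feedback inhibitor of cytokine receptors, had 1.72, 2.52 and 2.03 FPKM with shFAM83H-AS1_1, against 5.78, 5.68 and 4.66 FPKM with shNC (log2 change -1.05, limma adjusted p = 0.0144; -1.04 without replicate 3). ZC3H12A, a ribonuclease that degrades cytokine mRNAs, had 9.24, 9.41 and 7.56 FPKM against 16.0, 16.5 and 15.4 FPKM (-0.81, limma adjusted p = 0.0204; -0.72 without replicate 3). IL22RA2, a soluble receptor that binds interleukin-22, was among the 15 lowest changes of the rule, with 1.30, 2.57 and 0.798 FPKM against 5.28, 5.90 and 5.39 FPKM (-1.41, limma adjusted p = 0.0234; -1.19 without replicate 3). In all 3 genes the groups were separate, as in each of the 76 genes called lower with 9 libraries. SAA2, an acute-phase gene with near-identical relatives, had at most 0.385 FPKM with shFAM83H-AS1_1 and 1.11 to 1.49 FPKM with shNC (-0.97, limma adjusted p = 0.028). The shNC libraries alone met the filter for SAA2, which favours a negative sign.

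Of the interferon-stimulated genes and genes of MHC class I presentation, 0 of 26 and 0 of 17 measured members passed limma in either fit. Over all genes tested 1.57% passed with 9 libraries and 1.76% without replicate 3, so 0 calls in lists this short shows little. Before adjustment, 3005 genes had a limma p under 0.05 with 9 libraries and 2119 without replicate 3. The list medians were 0.09 and -0.06 (0.05 and -0.15 without replicate 3). With GC trends removed, 1 gene of the MHC class I list passed in each fit. TAP1, a peptide transporter, had a log2 change of -0.48 (limma adjusted p = 0.124; 0.0521 without replicate 3).

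Among the other genes with the lowest changes, ID4 (chromosome 6, 19837370 to 19842197), which blocks DNA binding by helix-loop-helix factors, had 0.414, 0.727 and 0.403 FPKM with shFAM83H-AS1_1, against 6.50, 2.81 and 7.74 FPKM with shNC (log2 change -2.06, SE 0.29, limma adjusted p = 0.0169; -2.01 without replicate 3). The controls were uneven, with replicate 2 the lowest, and still above all shFAM83H-AS1_1 libraries. The call was lost without shNC replicate 1 or 3 (adjusted p up to 0.094 over the alternatives). RGS2, a regulator of G protein signalling, had 8.10, 15.02 and 6.91 FPKM against 34.3, 23.3 and 55.9 FPKM (-1.80, limma adjusted p = 0.0327; -1.60 without replicate 3). MRAS, a Ras-related GTPase, had 13.5, 11.6 and 8.49 FPKM against 30.8, 28.6 and 35.9 FPKM (-1.44, limma adjusted p = 0.00933; -1.27 without replicate 3). For RGS2 replicate 2 was the nearest to the controls, and for MRAS replicate 3 was the farthest.

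HMGB2, a chromatin protein abundant in dividing cells, had 46.1, 55.8 and 28.9 FPKM with shFAM83H-AS1_1, against 129.5, 106 and 139.9 FPKM with shNC (log2 change -1.54, limma adjusted p = 0.016; -1.27 without replicate 3). THBS1, the matrix glycoprotein thrombospondin 1, had 4.91, 3.81 and 2.08 FPKM against 12.8, 11.6 and 9.77 FPKM (-1.47, limma adjusted p = 0.0204; -1.21 without replicate 3). GLYATL2, an enzyme that joins glycine to fatty acids, had 5.97, 10.6 and 4.16 FPKM against 23.8, 20.3 and 30.7 FPKM (-1.78, limma adjusted p = 0.0234; -1.51 without replicate 3). In these 3 genes replicate 3 was the lowest library. Replicates 1 and 2 alone were already below every control, as the rule that named them required. RGS2, GLYATL2, THBS1 and ID4 overlap genes on the opposite strand that were under the filter on low values, and the strand setting of the counting is not given in the sources used here, so reads of the partners could be included.

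Of the list on the MYC network and ribosome biogenesis, 43 of 44 genes were measured, 38 with a negative log2 change (40 without replicate 3). Over all 11875 genes tested, 6881 were negative with 9 libraries and 6016 without replicate 3, and 0.640% and 0.749% were called lower. UTP18, UTP4 and MAX were called lower in both fits, NOLC1 only without replicate 3, and no member of the list was called higher. The median was -0.59 with 9 libraries and -0.37 without replicate 3, and the list mean was -0.26, -0.42 and -1.03 in replicates 1, 2 and 3. UTP18, a component of the small-subunit processome that matures ribosomal RNA, had 10.3, 10.6 and 8.28 FPKM with shFAM83H-AS1_1, against 28.0, 29.8 and 26.9 FPKM with shNC. Its groups were narrow and far apart (log2 change -1.45, SE 0.13, limma adjusted p = 0.00175; -1.35 and 0.00128 without replicate 3). UTP4, of the same complex, had 26.8, 26.1 and 19.9 FPKM against 37.7, 39.4 and 37.4 FPKM (-0.64, limma adjusted p = 0.0473; -0.51 without replicate 3). MAX, the partner through which MYC binds DNA, had 3.08, 2.80 and 2.91 FPKM against 5.36, 5.20 and 4.35 FPKM (-0.60, limma adjusted p = 0.0473; -0.60 without replicate 3). MYC itself did not pass, at -0.38 (limma adjusted p = 0.368). NOLC1, a nucleolar phosphoprotein, had 53.7, 49.2 and 22.1 FPKM against 76.0, 79.8 and 77.0 FPKM. Replicate 3 lay far below replicates 1 and 2, and the gene did not pass with it (-0.98, limma adjusted p = 0.0855) and passed without it (-0.58, limma adjusted p = 0.0317).

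Of the spliceosome list, 45 of 46 genes were measured, 37 with a negative log2 change (35 without replicate 3). Over all 11875 genes tested these counts were 6881 and 6016, and 0.640% and 0.749% were called lower. PRPF38A and SRSF7 were called lower in both fits. PRPF38A (chromosome 1, 52404602 to 52420836), a factor needed for activation of the spliceosome, had 8.58, 9.48 and 7.94 FPKM with shFAM83H-AS1_1, against 25.6, 21.2 and 24.2 FPKM with shNC (log2 change -1.35, SE 0.12, limma adjusted p = 0.00175; -1.30 and 0.00128 without replicate 3). SRSF7, a splicing factor rich in serine and arginine, had 43.4, 46.9 and 34.5 FPKM against 60.5, 74.3 and 72.8 FPKM (-0.73, limma adjusted p = 0.0396; -0.60 without replicate 3). The list median was -0.32, or -0.16 without replicate 3.

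Among the higher genes, TNFSF10 (chromosome 3, 172505508 to 172523475), the death ligand TRAIL, had 3.21, 5.58 and 8.01 FPKM with shFAM83H-AS1_1, against 0.830, 0.704 and 0.534 FPKM with shNC. The groups were apart and the shFAM83H-AS1_1 libraries uneven, with replicate 1 the lowest (log2 change 1.90, SE 0.27, limma adjusted p = 0.0173; 1.64 and 0.0169 without replicate 3). Leaving out any 1 control ended the call with 9 libraries (adjusted p up to 0.083 over the alternatives). It was the only 1 of 28 measured genes of cell death that passed in either fit, where the list median was 0.01 in both. Its receptor gene TNFRSF10A had 3.69, 2.64 and 2.97 FPKM against 5.61, 4.97 and 5.04 FPKM and did not pass (-0.61, limma adjusted p = 0.0569).

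Keratin, desmosome and hemidesmosome genes, 28 of 33 measured, had a median of 0.23 (0.19 without replicate 3). Of these, 19 were positive (20 without replicate 3), against 4993 (5858) of all 11875 genes tested. KRT5 and ITGB4 were called higher in both fits, KRT8 and KRT18 only without replicate 3, and none were called lower. Of all genes tested, 0.935% were called higher with 9 libraries and 1.01% without replicate 3. KRT5 (chromosome 12, 52514575 to 52520530), a basal-layer keratin, had 160.4, 86.7 and 137 FPKM with shFAM83H-AS1_1, against 48.6, 31.5 and 39.9 FPKM with shNC (log2 change 1.63, SE 0.22, limma adjusted p = 0.0158; 1.56 without replicate 3). Replicate 1 was the highest, and replicate 2 the lowest of the 3. ITGB4 (chromosome 17, 75721328 to 75757818), the integrin chain that anchors hemidesmosomes, had 31.3, 26.0 and 52.4 FPKM against 15.1, 11.4 and 13.99 FPKM (1.32, limma adjusted p = 0.0327; 1.04 and 0.019 without replicate 3). It overlaps GALK1 on the opposite strand, which did not pass. KRT8, a keratin of simple epithelia, had 388, 333 and 721 FPKM against 184, 269.9 and 204 FPKM, and its partner KRT18 had 109.7, 118 and 222 FPKM against 70.1, 83.9 and 71.8 FPKM. Both were highest in replicate 3. They passed only when it was left out (limma adjusted p = 0.049 and 0.0466, against 0.0663 and 0.0739 with 9 libraries). KRT8 and KRT18 overlap over 1084 bases on opposite strands, so with the strand setting unknown they could share reads. KRT14, the usual partner of KRT5, went the other way and did not pass, with 34.8, 22.5 and 23.5 FPKM against 33.5, 33.3 and 45.8 FPKM (-0.48, limma adjusted p = 0.152).

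Of the actin and caveolae list, 39 of 42 genes were measured, with a median of 0.06 in both fits. Called higher were 4 with 9 libraries and 4 without replicate 3, and none were called lower. Of all genes tested, 0.935% were called higher with 9 libraries and 1.01% without replicate 3. TMSB10, an actin-binding thymosin, had 2489, 2113 and 3357 FPKM with shFAM83H-AS1_1, against 1428, 1330.2 and 1314 FPKM with shNC (log2 change 0.94, limma adjusted p = 0.0321; 0.76 and 0.0169 without replicate 3). S100A6, a calcium-binding protein, had 639.5, 605 and 806 FPKM against 415, 387 and 404 FPKM (0.75, limma adjusted p = 0.0327; 0.63 without replicate 3). MALL, a membrane raft protein, had 3.15, 2.71 and 9.17 FPKM against 0.774, 0.549 and 0.438 FPKM (1.77, limma adjusted p = 0.0444; 1.31 and 0.0298 without replicate 3). Replicate 3 was the highest library for all 3 genes, and the control libraries of TMSB10 and S100A6 differed little. FSCN1, the actin bundler fascin, passed only with replicate 3 included (1.37, limma adjusted p = 0.0495, against 1.11 and 0.0654 without it). EHD2, a protein of the caveolar neck, had 5.28, 5.50 and 17.3 FPKM against 1.67, 2.73 and 1.91 FPKM. It passed only without replicate 3 (1.06, limma adjusted p = 0.0406, against 1.56 and 0.0655 with 9 libraries).

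Of the other highest changes, EEF1A2 was the only called member of the list of translation factors, where 35 genes were measured, and the rest belonged to no list. DIRAS3, a Ras-like GTPase whose gene is imprinted, had 8.49, 10.0 and 13.7 FPKM with shFAM83H-AS1_1, against 1.64, 3.42 and 2.97 FPKM with shNC (log2 change 1.68, limma adjusted p = 0.011; 1.51 without replicate 3). LYPD3, a surface protein of the Ly6 family found in stratified epithelia, had 18.1, 14.4 and 35.1 FPKM against 5.56, 7.46 and 5.84 FPKM (1.60, limma adjusted p = 0.0299; 1.25 and 0.012 without replicate 3). EEF1A2, a tissue-restricted translation elongation factor, had 19.5, 19.9 and 35.5 FPKM against 6.88, 10.3 and 6.98 FPKM (1.49, limma adjusted p = 0.0256; 1.22 without replicate 3). None of the 3 overlapped between groups, which the rule that named them required, and replicate 3 was the highest each time. DIRAS3 lies opposite GNG12-AS1, which was also under the filter.

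TOX2, an HMG-box transcription factor, had 3.01, 4.57 and 6.49 FPKM with shFAM83H-AS1_1, against 1.08, 1.25 and 0.835 FPKM with shNC (log2 change 1.43, limma adjusted p = 0.0234; 1.21 without replicate 3). EYA2, a transcriptional coactivator with phosphatase activity, had 11.7, 11.5 and 22.1 FPKM against 4.91, 6.01 and 4.95 FPKM (1.30, limma adjusted p = 0.0286; 1.01 and 0.00739 without replicate 3). SPDEF, an ETS-family transcription factor of luminal and secretory epithelia, had 8.61, 9.55 and 12.7 FPKM against 3.88, 2.67 and 5.01 FPKM (1.23, limma adjusted p = 0.028; 1.08 without replicate 3). For EYA2 replicates 1 and 2 were alike and replicate 3 far higher, and the adjusted p was smaller without it. Of the noncoding genes named, PCAT6 had 5.76, 8.001 and 10.9 FPKM against 1.43, 2.06 and 2.07 FPKM (1.66, limma adjusted p = 0.0286). UNC5B-AS1 had 11.3, 7.34 and 15.4 FPKM against 3.32, 4.35 and 4.39 FPKM (1.25, limma adjusted p = 0.0361), and UNC5B on the other strand did not pass. The small RNA pseudogene RNU6-796P was listed at 0 in all 3 controls and had 1.15, 2.06 and 1.75 FPKM with shFAM83H-AS1_1, which is 9 reads in all. The rule also named TMEM270, C1orf115 and the pseudogene ARHGAP27P2, with log2 changes of 1.26, 1.26 and 1.37.

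Some genes were called in only 1 of the 2 fits. The 31 called only with replicate 3 (21 higher, 10 lower) had adjusted p-values of at most 0.072 without it. The 53 called only without it (30 higher, 23 lower) reached 0.276 with it. MIR210HG, the host gene of a hypoxia-linked microRNA, had 2.55, 5.49 and 20.7 FPKM with shFAM83H-AS1_1, against 0.656, 1.44 and 0.842 FPKM with shNC. Its log2 change was 2.02 with 9 libraries (limma adjusted p = 0.0757) and 1.30 without replicate 3 (limma adjusted p = 0.0466). CLDN1, a tight junction protein, had 15.9, 19.0 and 6.51 FPKM against 34.9, 26.7 and 40.3 FPKM, a log2 change of -1.34 (limma adjusted p = 0.0663) that was -0.91 without replicate 3 (limma adjusted p = 0.049). INHBB, a subunit of inhibins and activins, had 13.1, 7.37 and 7.72 FPKM against 3.84, 5.17 and 3.37 FPKM, where replicate 1 was the highest (1.10 without replicate 3, limma adjusted p = 0.0466). RASD2, CRISP3, CFL2, MAGEB4, FAM167B and MIR3176 were also called only without replicate 3; MIR3176 rests on 16 reads with shFAM83H-AS1_1 and 39 with shNC. CALML5, AZGP1P1, ANG, CASC8, PMP22, CENPV, PTX3 and TAF7L were called only with it, with limma adjusted p-values of 0.0531 (AZGP1P1) and 0.0522 (CASC8) among those that missed without it. TAF7L and FAM167B reached 1 FPKM in the shNC libraries only, and ANG with shFAM83H-AS1_1 only, so the filter favoured their signs.

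For several lists the sign of the whole group was clear with 9 libraries while few or no members passed. The size depended on replicate 3. Over all genes tested, 1.57% passed with 9 libraries and 1.76% without replicate 3. A positive log2 change was found in 4993 of all 11875 genes with 9 libraries and 5858 without replicate 3. Of 35 measured hypoxia and glycolysis genes, 33 had a positive log2 change and 0 passed limma in either fit; their median was 0.51, or 0.24 without replicate 3, with list means of 0.13, 0.46 and 1.25 in replicates 1, 2 and 3. CA9, which encodes an oxygen-regulated carbonic anhydrase, had 6.22, 10.7 and 52.8 FPKM with shFAM83H-AS1_1, against 0.986, 6.48 and 1.43 FPKM with shNC, and the groups overlapped (2.33, limma adjusted p = 0.105). All 65 measured cytosolic ribosomal protein genes were positive with 9 libraries and 59 without replicate 3, with medians of 0.35 and 0.19 and 0 called. With quantile normalization these medians were 0.17 and 0.11. Of 41 nuclear genes of oxidative phosphorylation, 36 were positive (median 0.22; 0.14 without replicate 3), and 0 passed.

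Lists on cell division, DNA repair and other processes also moved with that library. Over all 11875 genes tested, 6881 had a negative log2 change with 9 libraries and 6016 without replicate 3. Of 50 measured genes of mitosis, 43 had a negative log2 change with 9 libraries and 25 without replicate 3, and the list mean was -0.04, 0.16 and -0.95 in replicates 1, 2 and 3. The list on DNA replication moved less, with 36 of 45 negative and 34 without replicate 3 (medians -0.18 and -0.09). Homologous recombination genes had a median of -0.30, which was -0.04 without replicate 3, and zinc finger genes -0.16, which was 0.04 without it (0.01 with 9 libraries and GC trends removed, -0.00 without replicate 3 and with quantile normalization). YAP and TEAD targets had -0.40 and -0.12, and of these AMOTL2 passed only without replicate 3 (-0.62, limma adjusted p = 0.0349). Replication-dependent histone genes ran against this pattern, with a median of 0.41 that was 0.54 without replicate 3, and list means of 0.40, 0.53 and 0.13. Of the 18 measured, 16 had a positive log2 change with 9 libraries and 17 without replicate 3. H2BC21 alone passed the threshold, and only without replicate 3. It had 6.72, 8.48 and 3.59 FPKM against 3.33, 3.10 and 4.61 FPKM (0.88, limma adjusted p = 0.0371).

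**Figure D3:**
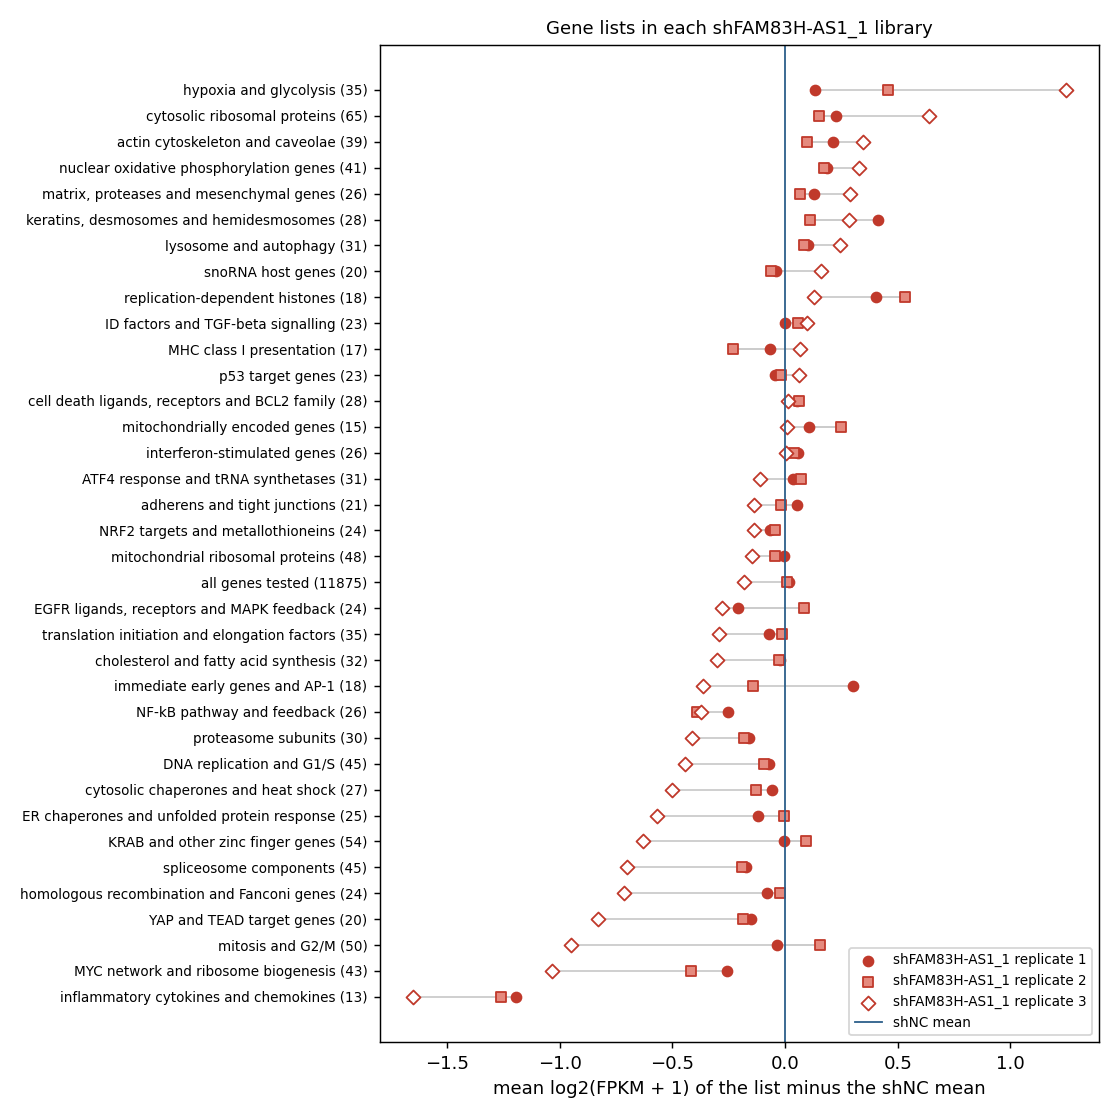
Mean of log2(FPKM + 1) over the measured genes of each list (number in brackets) in each shFAM83H-AS1_1 library, minus the shNC mean; circles, squares and hollow diamonds are replicates 1, 2 and 3. Lists with at least 5 measured genes are shown: chemokines and cytokines lie at -1.19 or below in all 3 libraries, while hypoxia, mitosis and ribosome biogenesis lists are far from 0 mainly in replicate 3.

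Replicate 3 differed from its own replicates most at genes that include oxygen-regulated and cell division genes. By rule, the genes named were the 6 highest and 6 lowest differences of replicate 3 from the mean of replicates 1 and 2 among protein-coding genes with a mean of at least 5 FPKM. The high ones were CA9, EGLN3, DDIT4, ID1, PTGS1 and NDRG1. EGLN3, an oxygen-sensing prolyl hydroxylase, had 4.28, 6.04 and 30.9 FPKM with shFAM83H-AS1_1, against 2.79, 4.19 and 3.19 FPKM with shNC. DDIT4, an mTORC1 inhibitor induced by stress, had 50.4, 32.7 and 192 FPKM against 35.4, 34.4 and 34.5 FPKM. The low ones were ANLN, CCN2, MKI67, BCLAF1, SMC4 and ECT2. MKI67, the proliferation marker Ki-67, had 24.9, 20.9 and 2.91 FPKM against 22.8, 18.7 and 22.9 FPKM, so replicates 1 and 2 lay within or beside the controls. None of the 12 passed in either fit. ANLN, MKI67, SMC4 and ECT2 had negative log2 changes with 9 libraries that turned positive without replicate 3, between 0.01 and 0.30. MALAT1, a nuclear noncoding RNA looked up after values were seen, had 42.1, 33.1 and 2.95 FPKM against 25.0, 51.4 and 49.7 FPKM.

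**Figure D4:**
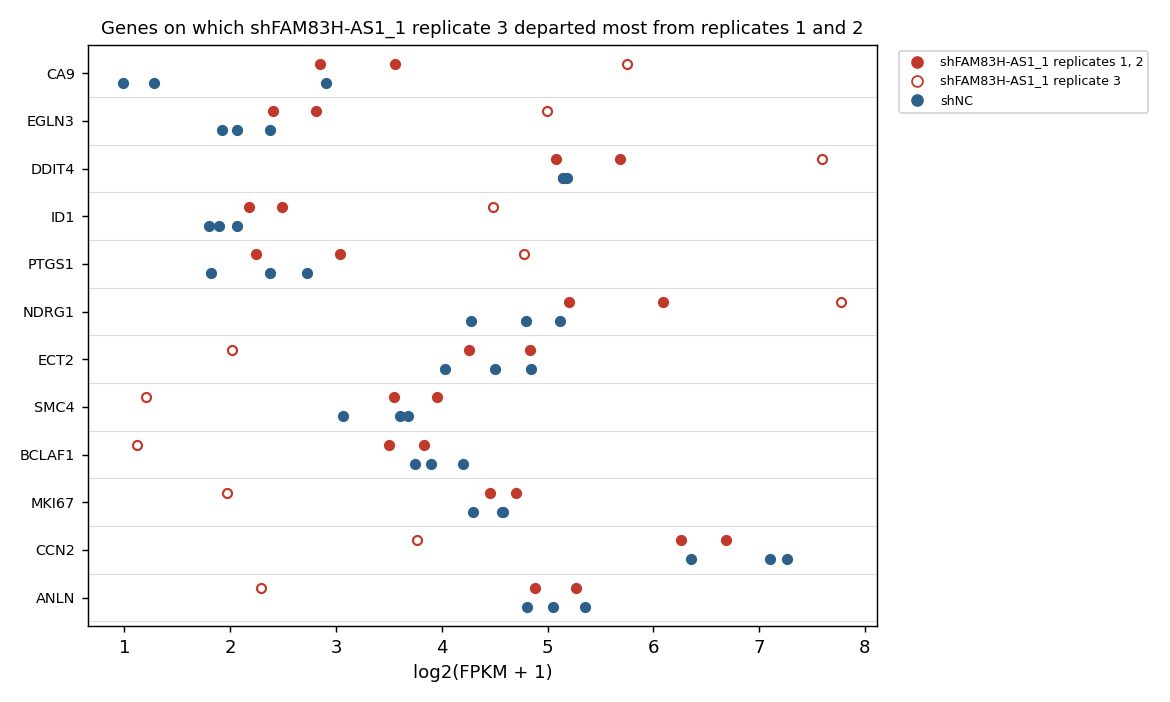
Levels as log2(FPKM + 1) of the 12 genes on which shFAM83H-AS1_1 replicate 3 (hollow red) departed most from replicates 1 and 2 (red, upper row of each gene), with the 3 shNC libraries in blue below. For MKI67, ANLN, SMC4 and ECT2, replicates 1 and 2 lie among or beside the controls and replicate 3 lies far below.

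The remaining lists held few calls, where 1.57% of all genes tested passed with 9 libraries and 1.76% without replicate 3. Of 18 immediate early genes, IER3, an NF-kB-responsive survival gene, was called lower in both fits. Its log2 change was -0.55 (limma adjusted p = 0.0444), and -0.61 without replicate 3. Of 24 NRF2 targets and metallothioneins, MT1F was called higher in both fits (0.79, limma adjusted p = 0.0399). Near-identical copies of MT1F could share its reads. GCLM passed only without replicate 3 (-0.50, limma adjusted p = 0.04997, against -0.70 and 0.0655 with 9 libraries). LTBP3 (0.82), TIMP1 (0.62) and PSMC1 (-0.66) passed only with replicate 3 included, with limma adjusted p-values of 0.0495, 0.0418 and 0.0468. Without it their log2 changes were 0.70, 0.57 and -0.60. In the lists on EGFR and MAPK signalling, cholesterol synthesis, the ATF4 response, endoplasmic reticulum chaperones, cytosolic chaperones, lysosomes, p53 targets, snoRNA hosts, DNA replication and mitochondrial ribosomes, 0 genes passed limma in either fit.

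By annotation, 88 of the 111 higher genes and 71 of the 76 lower genes were protein coding, against 10334 of 11875 tested. Called genes of 1 direction lay within 200 kb of each other in 9 places. Besides the chemokines on chromosome 4, AZGP1, AZGP1P1 and LAMTOR4 were higher on chromosome 7 (99966720 to 100155944), where 15 genes were tested, and LINC01605 and ZNF703 on chromosome 8, where both tested genes of the span were called. AZGP1, a zinc-binding glycoprotein of secretory epithelia, had 801, 689 and 1117 FPKM with shFAM83H-AS1_1, against 413, 509 and 457 FPKM with shNC (log2 change 0.89, limma adjusted p = 0.0399), and reads can be shared with its pseudogene AZGP1P1. Of the 240 genes called in either fit, 103 overlap a gene on the opposite strand, 49 of them one that was tested. ICAM1, TNFAIP3, PRPF38A and MAX are among the 103, and with the strand setting unknown reads of the partners could be included.

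Of the 187 genes called against shNC, 6 also differed between the hairpins (limma adjusted p under 0.05 for shFAM83H-AS1_2 minus shFAM83H-AS1_1), where 0.0926% of all genes tested did. The 187 were called on the same shFAM83H-AS1_1 libraries that form 1 arm of this contrast, so nothing is read from that share. PRPF38A had 8.58, 9.48 and 7.94 FPKM with shFAM83H-AS1_1, against 23.4, 21.6 and 21.2 FPKM with shFAM83H-AS1_2 and 25.6, 21.2 and 24.2 FPKM with shNC. The shFAM83H-AS1_2 libraries lay among the controls, and the difference between the hairpins was 1.26 (limma adjusted p = 0.00536). ID4 had 6.01, 4.57 and 7.68 FPKM and SPDEF 3.55, 2.58 and 3.15 FPKM with shFAM83H-AS1_2, also within or beside the range of the controls (differences 2.21 and -1.46, limma adjusted p = 0.027 and 0.0355). CXCL1 had 9.07, 9.49 and 7.04 FPKM, ICAM1 22.1, 26.4 and 20.8 FPKM and UTP18 22.5, 19.9 and 17.5 FPKM with shFAM83H-AS1_2, each between the other groups without overlap. Their differences were 2.15, 0.95 and 0.97 (limma adjusted p = 0.0258, 0.0355 and 0.0347). Over the alternatives this count ran from 1 to 53, and without replicate 3 it was 10 of 209. For the other called genes the difference did not pass, which does not show that the hairpins act alike.

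**Figure D5:**
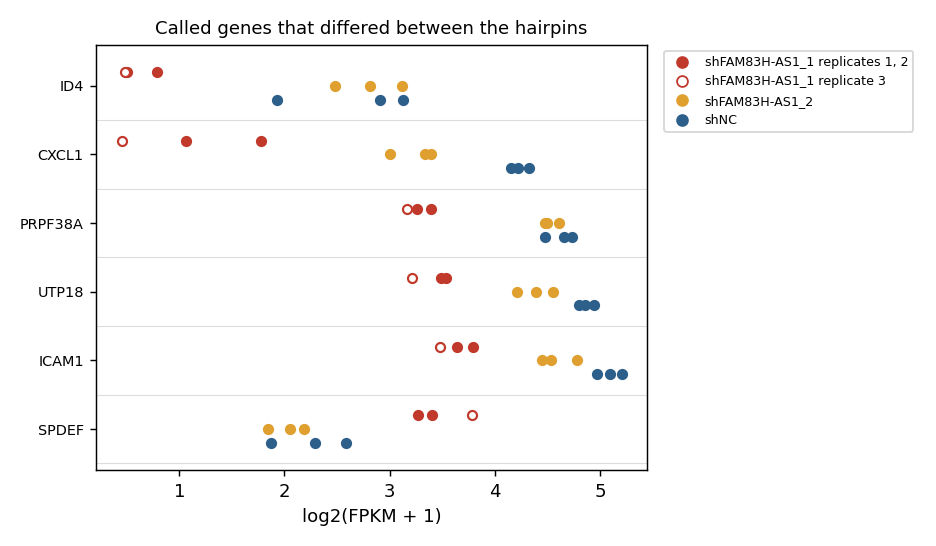
Levels as log2(FPKM + 1) of the 6 called genes that differed between the hairpins, in shFAM83H-AS1_1 (red, top row of each gene, replicate 3 hollow), shFAM83H-AS1_2 (orange, middle) and shNC (blue, bottom). PRPF38A, ID4 and SPDEF have shFAM83H-AS1_2 beside the controls, while CXCL1, ICAM1 and UTP18 have it between the other groups.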

How the data were processed

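RNA-seq was measured in 9 libraries of MDA-MB-468 cells, 3 per hairpin, grouped by their labels. The deposited values are FPKM per gene made by the authors; the submitters' processing notes list hg38, HTSeq 0.6.0, HISAT2 2.1.0 and Bowtie2 2.2.3. Annotation release and strand setting were not given in the sources used here. 1 of 31005 lines named no gene and was left out. Whole reads could be recovered for 100.0% of 31004 genes (tolerance 1e-05 reads), which gave the read totals.

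Genes that reached 1 FPKM in 3 or more libraries were tested as log2(FPKM + 1) with limma 3.58.1 (R 4.3.3, variance trend), all 9 libraries in 1 fit, Benjamini-Hochberg adjustment over 11875 genes and a threshold of 0.05, and again without shFAM83H-AS1_1 replicate 3. A fold change on this scale understates the change of low genes. The fit was also run on simulated data, with the same spread per gene in every library, no outlying library and no trend with GC content. That run cannot speak for how these features move the calls, and nothing is read from it. GENCODE 29 gave length, GC content and gene type, and 23852 genes were named from the gene table given and 6251 from GENCODE 29.

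Members, lists and tests were chosen with earlier results of these data known. Genes named were the target; the 15 highest and 15 lowest changes called in both fits without overlap between groups; 5 in each direction called in only 1 fit; the 4 smallest p-values of each list, of which those that bear on a comparison are printed; and the 12 genes on which replicate 3 departed most from its replicates. Clone-like symbols were passed over. SPDEF, AZGP1, RELA, NFKBIA, CSF1, MYC, KRT14, NOLC1, H2BC21, SOCS3, ZC3H12A, SAA2, MALAT1 and the neighbours of called genes lie outside these rules and were chosen after their values were seen. Alternatives were another pseudocount, filter, scaling, variance model, library weights, GC trends, replicate block, voom, only the 2 groups, and each library left out.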

Additional observations from a re-analysis of the deposited data

How the results depend on the processing

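With 9 libraries the count of 187 called genes was 156 to 267 with a pseudocount of 0.1, a 5 FPKM filter, median centring, quantile normalization and a robust variance model. It was 30 with no filter, 9 with only the 2 groups, 2361 with library weights, 369 with GC trends removed and 83 with voom on recovered reads, and 9 to 1008 with 1 library left out. Without shFAM83H-AS1_1 replicate 3 the count of 209 was 60 with no filter, 39 with only the 2 groups, 405 with library weights and 465 with GC trends removed, and 13 to 174 with 1 further library left out. The cause of these shifts was not tested. CCL2, CXCL1, CXCL3, CXCL8, FAM83H-AS1, ICAM1, PRPF38A, TNF and UTP18 passed whichever of the 9 libraries was left out. The log2 change of FAM83H-AS1 stayed at -1.35 with only the 2 groups, where its limma adjusted p was 0.0586. The count of 6 called genes that differed between hairpins was 3 with a pseudocount of 0.1, 1 with no filter, 53 with library weights, 13 with GC trends removed, 1 with voom and 1 to 8 with 1 library left out; these were chosen after seeing the data. Directions turned for MT-ND3 with quantile normalization (-0.039) and KDR with library weights (0.0042). With 1 library left out, ANLN ranged from -1.48 to 0.0065, MKI67 from -1.27 to 0.094, SMC4 from -1.07 to 0.30 and ECT2 from -1.32 to 0.086, each positive without shFAM83H-AS1_1 replicate 3. Values of few reads, as for CXCL3, CCL20 and MIR3176, are limited by depth.

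Same-numbered shFAM83H-AS1_1 and shNC libraries had deviations that correlated at 0.18, -0.39 and -0.25, against -0.12 to 0.445 for different numbers. These deviations include the trends with GC content, so they do not settle whether replicate numbers pair the samples. With the replicate block 92 genes were called with 9 libraries, 74 of them shared with the 187, and 242 without replicate 3; with GC trends removed as well, 414 and 684. The hairpins then differed at 1 called gene with the block and 13 with both.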
